A study of Mus musculus with 6 samples.

Results

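The aldehyde dehydrogenases studied here are 10 genes of a family in which most enzymes oxidise aldehydes to acids: Aldh1a1, Aldh1a3, Aldh1b1, Aldh1l2, Aldh2, Aldh3a1, Aldh3a2, Aldh7a1, Aldh9a1 and Aldh18a1. They were picked from the 31017 rows of the count table by name, with their values in the comparison of FGFR2 KO and control cells already known. Their differences between those groups are therefore described with their standard errors and without a p-value. The table holds 21 genes of the family in all, and the other 11 were not members.

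Poly(A) RNA was sequenced from 4T1 cells, a mouse mammary carcinoma line, in 3 libraries labelled FGFR2 KO (Cas9 with guides against FGFR2, a fibroblast growth factor receptor) and 3 control libraries (Cas9 with control guides), all nucleofected and all grown as collagen I gels in medium with 10% serum. The gels held either 1.2 or 2.4 mg/ml collagen, which the labels do not assign to libraries, and the cells were released with collagenase before freezing. The labels do not say whether a pool or 1 clone was used, nor whether replicates were separate cultures, so a p-value here rests on library-to-library variation that could be purely technical. Library totals were 18635037, 19545981 and 20171309 counts in FGFR2 KO replicates 1 to 3 and 18402522, 20447719 and 15531790 counts in control replicates 1 to 3.

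Levels are counts scaled to a common library size (CPM), from library totals scaled by the trimmed mean of M values (TMM). Fgfr2 itself stood at 101, 81.2 and 95.2 CPM in the FGFR2 KO libraries and at 96.9, 95.9 and 106 CPM in the control libraries (-0.11 on the log2 scale, SE 0.056; edgeR adjusted p = 0.113), with overlapping ranges. A count over the whole gene does not test an edit that leaves the transcript in place. The 8 epithelial markers summed to 4353 to 4417 CPM in the FGFR2 KO libraries and 5275 to 5387 CPM in the control libraries, and by edgeR 1 of the 8 rose and 6 fell. The 9 leukocyte markers summed to 6.21 to 8.69 CPM in the FGFR2 KO libraries and 14.3 to 16.7 CPM in the control libraries, mostly Cd68, and Cd3e, Adgre1 and Nkg7 had 0 counts in all libraries. The 7 fibroblast markers summed to 39.3 to 44.8 CPM in the FGFR2 KO libraries and 36.3 to 38.1 CPM in the control libraries, mostly Pdgfra. Lum, Thy1 and Col3a1 had 0 counts. At low counts, Col1a1 had 33, 18 and 21 in the FGFR2 KO libraries and 10, 9 and 5 in the control libraries. Dcn had 11, 10 and 12 counts in the FGFR2 KO libraries and 2, 0 and 0 in the control libraries. The 6 endothelial and 4 adipocyte markers summed to at most 0.818 and 0.107 CPM in any library, and 3 of each list, among them Kdr and Adipoq, had 0 counts. The part of these markers in the differences below was not tested, and in bulk RNA fewer cells of a kind and less RNA per cell cannot be told apart.

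Most aldehyde dehydrogenases use NAD or NADP to turn reactive aldehydes, from alcohols, lipid peroxidation, amino acids and vitamin A, into acids. The Aldh1a enzymes make retinoic acid from retinal, and aldehyde dehydrogenase activity of this kind is widely used to mark stem-like cells in mammary tissue and breast tumours. Other members serve single pathways in mitochondria or at membranes, such as proline synthesis or the breakdown of lysine and of fatty aldehydes.

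In 4T1 cells grown in collagen, 6 of the 10 genes were clearly present, Aldh2 and Aldh3a1 foremost, and the other 4 lay below 1 CPM on average in both groups. Aldh3a1 was the 1 tested member with more RNA in the FGFR2 KO libraries, 4.90-fold the control level. The other 6 tested members were lower in the FGFR2 KO libraries. The 5 of these above 1 CPM differed by between -0.40 and -0.11 on the log2 scale. Of the 10 genes, 7 passed the filter on low counts and entered the fit of all 12158 genes. In that fit 6 of the 7 lay past the threshold (edgeR quasi-likelihood test, adjusted p below 0.05), 1 higher and 5 lower, against 54.6% of all tested genes, of which 27.1% were higher and 27.5% lower. All 7 had FGFR2 KO and control libraries that did not overlap, against 59.5% of tested genes. Both counts include Aldh1b1, which passed the filter only through the control libraries and so had to be lower. Since the members were named with these values in view, nothing is read from their counts.

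**Figure D1:**
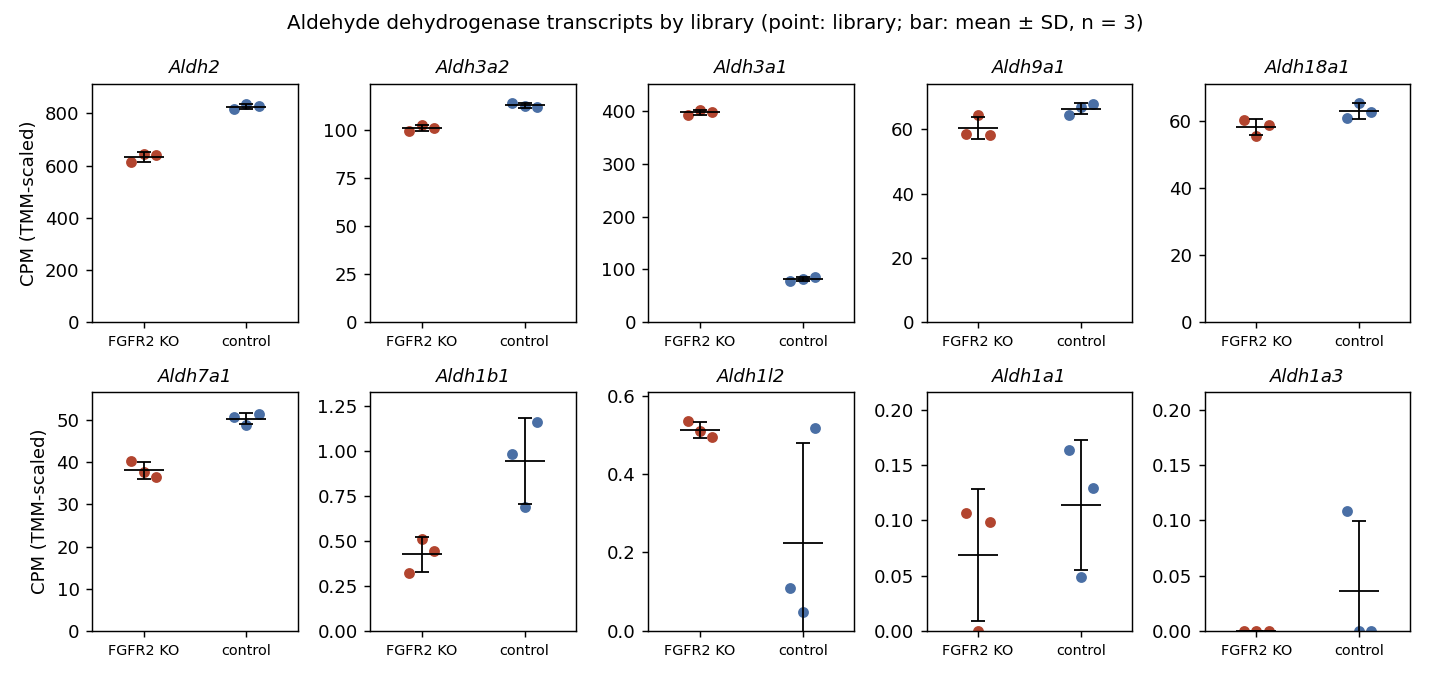
TMM-scaled CPM (vertical axes, each from 0) of the 10 aldehyde dehydrogenase genes in FGFR2 KO (left) and control (right) libraries; points are libraries and bars the mean ± SD (n = 3). Aldh3a1 stands at 393.2 to 402.5 CPM in FGFR2 KO against 77.6 to 85.1 CPM in control libraries, while the other members above 1 CPM differ far less.

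Aldh3a1 encodes a mainly cytosolic enzyme that oxidises medium-chain and aromatic aldehydes, including products of lipid peroxidation, and is best known as an abundant protein of the mouse cornea. It had 7351, 7880 and 8079 counts in FGFR2 KO replicates 1 to 3, and 1423, 1653 and 1318 counts in control replicates 1 to 3. In CPM these were 393.2, 402.5 and 399.0 in the FGFR2 KO libraries and 77.6, 81.4 and 85.1 in the control libraries. The lowest FGFR2 KO library thus lay far above the highest control library, and replicates of a group lay close together. The means were 398 ± 4.68 CPM in FGFR2 KO and 81.3 ± 3.75 CPM in control cells (SD, n = 3 each), a log2 fold change of 2.29 (SE 0.041). By the size of its log2 fold change, in either direction, Aldh3a1 stood at place 161 among the 12158 tested genes.

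The gene lies on chromosome 11 of mm10, from 61207537 to 61218421 on the plus strand, with no other annotated gene overlapping it. Aldh3a2, the closest member in position, lies 5.00 kb further along on the minus strand, so that the 3′ ends of both genes face each other. Per kb of annotated exon, Aldh3a1 stood at 11.5, 11.4 and 11.4 times the level of Aldh3a2 in the FGFR2 KO libraries and at 1.97, 2.10 and 2.20 times in the control libraries. This ratio did not overlap between the groups, but its size depends on the length used. Per kb of coding length, the means of Aldh3a1 and Aldh3a2 were 293 and 63.2 CPM per kb in FGFR2 KO cells. In control cells they were 59.9 and 70.6 CPM per coding kb, so that Aldh3a1 lay below Aldh3a2.

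Aldh2, the mitochondrial enzyme that clears acetaldehyde, was the most abundant member by counts in every library. It stood at 612, 645.5 and 641 CPM in the FGFR2 KO libraries and at 816, 834 and 827 CPM in the control libraries. The groups did not overlap, and the FGFR2 KO mean of 633 ± 18.04 CPM was 76.7% of the control level by the fit, beside a control mean of 826 ± 9.23 CPM (SD, n = 3 each), a log2 fold change of -0.38 (SE 0.033). The gene is on chromosome 5, from 121566027 to 121593824, and shares 130 exon bases with the transcript model Gm42879 on the other strand.

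Aldh7a1, which oxidises an aldehyde of lysine breakdown and, for the human enzyme, also betaine aldehyde, showed a difference of similar size. It stood at 40.2, 37.6 and 36.4 CPM in the FGFR2 KO libraries and at 50.7, 48.8 and 51.4 CPM in the control libraries. All FGFR2 KO libraries lay below all control libraries, with a log2 fold change of -0.40 (SE 0.060). Its exons share 300 bases with Phax and 176 bases with the processed pseudogene AC162035.3, both on the other strand. Since the strand setting of the counting is not given, Aldh7a1 cannot be fully told apart from either. Phax stood at 36.5 ± 3.00 CPM in FGFR2 KO and 33.8 ± 2.66 CPM in control cells (SD, n = 3 each; log2 fold change 0.11, edgeR adjusted p = 0.19).

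Aldh3a2, the fatty aldehyde dehydrogenase of the endoplasmic reticulum, stood at 99.2, 102.4 and 101.0 CPM in the FGFR2 KO libraries and at 114, 112 and 112 CPM in the control libraries. Its groups were separate but close, with a log2 fold change of -0.16 (SE 0.043). Aldh9a1, which makes the carnitine precursor trimethylaminobutyrate, stood at 58.6, 64.5 and 58.4 CPM in the FGFR2 KO libraries and at 64.5, 67.1 and 67.8 CPM in the control libraries. FGFR2 KO replicate 2 and control replicate 1 nearly met, and the log2 fold change was -0.14 (SE 0.054).

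Aldh18a1 encodes the mitochondrial pyrroline-5-carboxylate synthase, the first enzyme of proline synthesis from glutamate. It stood at 60.2, 55.5 and 58.7 CPM in the FGFR2 KO libraries and at 60.8, 65.2 and 62.5 CPM in the control libraries. The groups were separated by less than 1 SD of either. The log2 fold change of -0.11 (SE 0.054) was the smallest among the tested members and the 1 not past the threshold. Nothing is read from this call, since the members were named with their values in view. The number of members past the threshold also changed with the processing.

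The promoters of these 3 genes with small differences are shown because they are the expressed members with an entry in the promoter table. It held 5 of the 10 members (Aldh1a1, Aldh1b1, Aldh3a2, Aldh9a1 and Aldh18a1), as RefSeq sequences of GRCm38.p6 from 250 bases before to 50 bases after a start. The windows are chr11:61267137-61267436 on the minus strand (Aldh3a2), chr1:167349741-167350040 on the plus strand (Aldh9a1) and chr19:40588414-40588713 on the minus strand (Aldh18a1). Each is written 5′ to 3′ along its gene, and capitals mark matches on either strand to the searched motifs.
Aldh3a2: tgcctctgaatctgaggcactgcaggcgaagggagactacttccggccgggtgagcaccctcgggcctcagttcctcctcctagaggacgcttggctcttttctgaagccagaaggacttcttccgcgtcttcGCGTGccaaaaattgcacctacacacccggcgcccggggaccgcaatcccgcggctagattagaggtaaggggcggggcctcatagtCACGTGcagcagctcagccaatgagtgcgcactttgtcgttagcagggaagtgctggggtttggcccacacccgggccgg
Aldh9a1: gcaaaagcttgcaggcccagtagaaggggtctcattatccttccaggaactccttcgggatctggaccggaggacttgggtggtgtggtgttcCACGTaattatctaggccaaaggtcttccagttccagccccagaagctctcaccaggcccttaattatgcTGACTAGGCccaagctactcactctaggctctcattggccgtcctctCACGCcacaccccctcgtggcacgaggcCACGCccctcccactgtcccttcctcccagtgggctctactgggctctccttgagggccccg
Aldh18a1: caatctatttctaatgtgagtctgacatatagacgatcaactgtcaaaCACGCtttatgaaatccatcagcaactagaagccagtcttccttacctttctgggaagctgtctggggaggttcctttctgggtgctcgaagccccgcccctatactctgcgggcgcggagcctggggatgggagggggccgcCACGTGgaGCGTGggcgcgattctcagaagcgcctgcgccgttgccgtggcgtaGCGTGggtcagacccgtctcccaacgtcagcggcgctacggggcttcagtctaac

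The motifs searched were GCGTG (the core bound by the aryl hydrocarbon receptor), ACGTG (the core bound by hypoxia-inducible factors), TGACNNNGC (the antioxidant response core), TGATGNAA (the C/EBP-ATF element) and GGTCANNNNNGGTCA (a retinoic acid response repeat). The run CACGTG in Aldh3a2 and Aldh18a1 holds ACGTG on both strands. All 3 windows held GCGTG and ACGTG, which occur in 32.4% and 19.6% of all 32851 windows of this length. TGACNNNGC, present in 12.4% of windows, was found in Aldh9a1. TGATGNAA, in 3.97% of windows, and the retinoic acid repeat, in 0.0761%, were in none of the members' windows used here. None of the 5 motifs was in the windows of Aldh1a1 and Aldh1b1. Matches describe letters and not binding.

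The 4 members below 1 CPM included both retinal dehydrogenases. Aldh1a1 had 2, 0 and 2 counts in FGFR2 KO replicates 1 to 3 and 3, 1 and 2 counts in control replicates 1 to 3. Its close relative Aldh1a7, which lies beside it on chromosome 19, had 0 counts in all libraries. Aldh1a3 had 0 counts in each FGFR2 KO library, and 2, 0 and 0 counts in the control libraries. A count of 0 allows up to 3 counts, which is 0.148 to 0.160 CPM in the FGFR2 KO libraries. No difference was detectable for either gene at this depth, and the third gene of the group, Aldh1a2, had 0 counts throughout. None of these 3 retinal dehydrogenase genes held more than 3 counts in any library.

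Aldh1b1, a mitochondrial relative of Aldh2, had 6, 10 and 9 counts in the FGFR2 KO libraries and 18, 14 and 18 counts in the control libraries. The groups did not overlap, with a log2 fold change of -1.11 (SE 0.44) on levels of 0.425 ± 0.0963 CPM in FGFR2 KO and 0.944 ± 0.238 CPM in control cells (SD, n = 3 each). This gene passed the filter on low counts, whose cutoff was 0.524 CPM, only through the control libraries, so it had to differ. Aldh1l2, a mitochondrial enzyme of folate metabolism that releases formate carbon as carbon dioxide, had 10, 10 and 10 counts in the FGFR2 KO libraries and 2, 1 and 8 counts in the control libraries. Control replicate 3 reached the FGFR2 KO level, and the gene did not pass the filter. Its exons share 1056 bases with D10Wsu102e on the other strand, a gene at 89.4 CPM in FGFR2 KO and 81.7 CPM in control cells, so its few counts are uncertain.

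Levels of different genes were compared per kb of length. Per kb of annotated exon, Aldh3a1 led in the FGFR2 KO libraries at 205 ± 2.41, ahead of Aldh2 at 123.5 ± 3.52 CPM per kb (SD, n = 3). In the control libraries Aldh2 led at 161 ± 1.80 and Aldh3a1 came next at 41.9 ± 1.93 CPM per kb. After them came Aldh3a2, Aldh9a1, Aldh18a1 and Aldh7a1 in both groups, from 17.95 down to 7.35 CPM per kb in FGFR2 KO and from 20.06 down to 9.71 CPM per kb in control cells. Aldh3a2 and Aldh9a1 overlapped within each group and could not be ranked.

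The leading place in FGFR2 KO cells depended on the length used. Per kb of coding length, Aldh2 led in the FGFR2 KO libraries as well, at 406.5 ± 11.6 CPM per kb, with Aldh3a1 at 293 ± 3.45 CPM per kb. In the control libraries Aldh2 stood at 530 ± 5.93 and Aldh3a1 at 59.9 ± 2.76 CPM per coding kb, now below Aldh3a2 at 70.6 ± 0.774. Of the summed CPM per exon kb of the 10 genes, Aldh3a1 made up 53.1% ± 0.211 in FGFR2 KO and 15.6% ± 0.516 in control cells, and Aldh2 made up 32.0% ± 0.442 in FGFR2 KO and 60.0% ± 0.423 in control cells (SD, n = 3 each). By coding length the shares of Aldh3a1 were 34.5% in FGFR2 KO and 7.86% in control cells, and those of Aldh2 were 47.8% in FGFR2 KO and 69.6% in control cells. Summed CPM of the 10 genes ranged from 1265 to 1309 in the FGFR2 KO libraries and from 1185 to 1210 in the control libraries. Without Aldh3a1 the sums were 872 to 906 CPM in the FGFR2 KO libraries and 1107 to 1128 CPM in the control libraries.

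**Figure D2:**
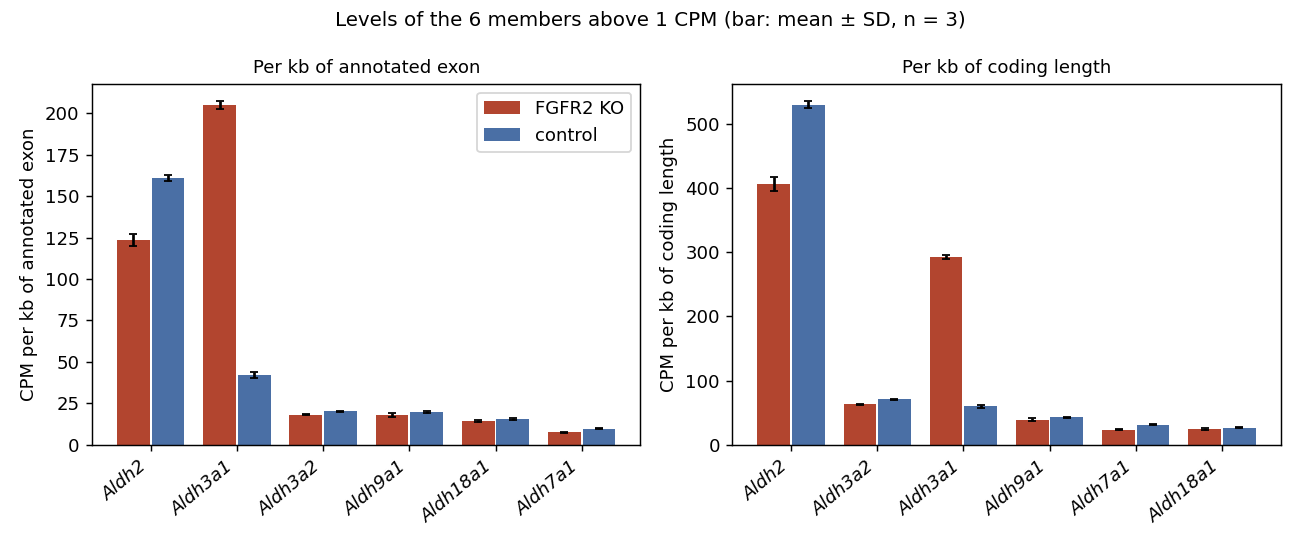
CPM per kb of annotated exon (left) and per kb of coding length (right) of the 6 members above 1 CPM, FGFR2 KO bars left of control bars, mean ± SD (n = 3). Aldh3a1 exceeds Aldh2 in FGFR2 KO cells on the left (205 against 123.5 CPM per kb) but not on the right (293 against 406.5 CPM per kb).

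Of the 11 family genes outside the list, 5 could be tested by edgeR, of which 3 fell, none rose and the other 2 had no call. Calls thus made up 60.0%, close to the 54.6% of all tested genes. By direction this was 0% higher and 60.0% lower, beside 27.1% and 27.5% of all tested genes. Aldh3b1, a membrane-attached relative of Aldh3a1, fell to 7.95 ± 1.28 CPM in FGFR2 KO cells, against 15.3 ± 0.804 CPM in control cells (SD, n = 3 each), or -0.95 on the log2 scale (SE 0.12; adjusted p = 1.3e-08 by edgeR). Aldh6a1, a mitochondrial enzyme of valine breakdown, fell to 7.94 ± 0.435 CPM in FGFR2 KO cells, against 13.0 ± 0.619 CPM in control cells, or -0.71 on the log2 scale (SE 0.12; adjusted p = 2.56e-06 by edgeR). Aldh5a1, the succinate semialdehyde dehydrogenase, fell by 0.27 on the log2 scale (SE 0.11, edgeR adjusted p = 0.0392), with overlapping libraries. Its call was lost with DESeq2 (adjusted p = 0.134), with the replicate number as a block (edgeR 0.0507), and without FGFR2 KO replicate 2 (0.263), control replicate 1 (0.204) or control replicate 2 (0.104).

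Aldh4a1, the proline catabolic enzyme, differed by 0.37 (SE 0.25, edgeR adjusted p = 0.215) and Aldh16a1 by -0.07 (SE 0.069, edgeR adjusted p = 0.389). The other 6 (Aldh1a2, Aldh1a7, Aldh1l1, Aldh3b2, Aldh3b3 and Aldh8a1) held at most 4 counts in any group and were not tested.

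**Figure D3:**
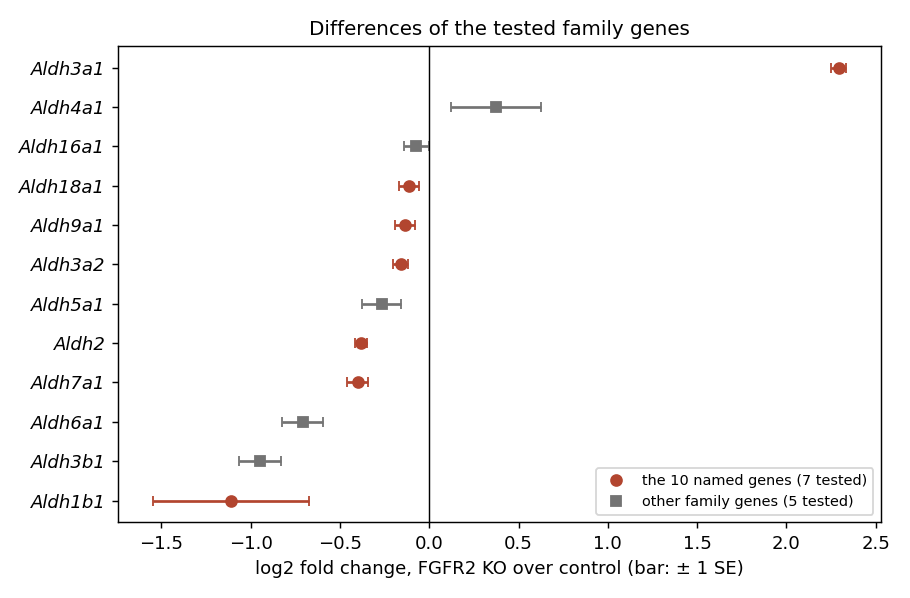
Log2 fold changes, FGFR2 KO over control, of the 7 tested members (circles) and the 5 other tested family genes (squares), with bars of ± 1 SE. Aldh3a1 stands alone at 2.29, and the values of the other members run from -1.11 to -0.11. The value of -1.11 is that of Aldh1b1, which passed the filter only through the control libraries.

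Genes of the aryl hydrocarbon receptor pathway were looked at because Aldh3a1 is known from rat liver as a gene that this ligand-activated transcription factor induces. Of 9 tested genes of the receptor and its targets, edgeR called 5 higher and 1 lower, and the median log2 fold change was 0.28, against -0.01 over all tested genes. This is 55.6% higher and 11.1% lower, beside 27.1% and 27.5% of all genes. Nqo1, a quinone reductase that NRF2 induces as well, rose to 75.4, 79.5 and 78.9 CPM in the FGFR2 KO libraries, against 31.0, 28.75 and 31.1 CPM in the control libraries (1.37 on the log2 scale, SE 0.058; edgeR adjusted p = 1.26e-21). Cyp1b1, a cytochrome P450 and classic target, rose to 69.1, 72.3 and 66.9 CPM in the FGFR2 KO libraries, against 37.55, 33.5 and 33.1 CPM in the control libraries (1.00 on the log2 scale, SE 0.060; edgeR adjusted p = 5.87e-17). For both genes all FGFR2 KO libraries lay above all control libraries.

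Tiparp, a target that feeds back on the receptor, rose to 230 ± 7.32 CPM in FGFR2 KO cells, against 139 ± 2.44 CPM in control cells (SD, n = 3 each; log2 fold change 0.73, edgeR adjusted p = 3.55e-18). The amino acid transporter Slc7a5 rose by 0.28 (SE 0.039) and the receptor gene Ahr by 0.44 on the log2 scale (SE 0.062, edgeR adjusted p = 2.16e-07). Its partner Arnt fell by 0.15 (SE 0.049, edgeR adjusted p = 0.0082). The repressor Ahrr, a sensitive target in many tissues, differed by -0.18 (SE 0.25, edgeR adjusted p = 0.555). Cyp1a1, the best known target, was barely detected, with 8, 1 and 9 counts in the FGFR2 KO libraries and 1, 0 and 1 counts in the control libraries, and was not tested. Ahr, Arnt, Ahrr, Cyp1a1 and, below, Nfe2l2 were singled out after their values were seen.

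The promoters of the 3 receptor targets with the smallest adjusted p are shown, from the same RefSeq table: Nqo1 (chr8:107403156-107403455, minus strand), Cyp1b1 (chr17:79715012-79715311, minus strand) and Tiparp (chr3:65528197-65528496, plus strand). Capitals mark CACGC, which is GCGTG read on the other strand, found once each in Cyp1b1 and Tiparp. None of the searched motifs was in the window of Nqo1, which had the highest log2 fold change of the list.
Nqo1: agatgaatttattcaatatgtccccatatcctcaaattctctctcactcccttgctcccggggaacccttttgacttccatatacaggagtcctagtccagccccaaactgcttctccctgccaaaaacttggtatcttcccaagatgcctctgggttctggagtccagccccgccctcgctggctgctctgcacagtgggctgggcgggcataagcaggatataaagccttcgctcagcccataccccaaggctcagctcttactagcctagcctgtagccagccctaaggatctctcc
Cyp1b1: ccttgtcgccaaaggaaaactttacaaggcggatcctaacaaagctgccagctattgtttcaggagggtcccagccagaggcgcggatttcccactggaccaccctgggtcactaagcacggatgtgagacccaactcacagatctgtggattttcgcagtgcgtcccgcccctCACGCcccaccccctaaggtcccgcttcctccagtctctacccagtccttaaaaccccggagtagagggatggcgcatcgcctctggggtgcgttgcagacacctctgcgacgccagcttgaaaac
Tiparp: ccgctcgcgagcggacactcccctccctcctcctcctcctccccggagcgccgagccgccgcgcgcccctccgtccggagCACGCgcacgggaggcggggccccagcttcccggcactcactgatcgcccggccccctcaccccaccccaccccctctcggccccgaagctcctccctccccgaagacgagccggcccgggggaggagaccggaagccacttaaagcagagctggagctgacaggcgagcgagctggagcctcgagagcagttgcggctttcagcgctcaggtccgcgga

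NRF2 target genes, which respond to oxidants and overlap the aryl hydrocarbon receptor list in 2 genes (Nqo1 and Nfe2l2), moved both ways, more often up. Of 25 tested, edgeR called 13 higher and 6 lower, with a median of 0.14. This is 52.0% higher and 24.0% lower, beside 27.1% and 27.5% of all tested genes. Besides Nqo1, the glutamate cysteine ligase subunit Gclc rose by 0.66, the glutathione transferase Mgst1 by 0.67 and thioredoxin reductase Txnrd1 by 0.44. Glutathione reductase Gsr fell by 0.58 to 190 CPM in FGFR2 KO cells, against 284 CPM in control cells. Nfe2l2, the gene of NRF2, differed by -0.01 (SE 0.050, edgeR adjusted p = 0.934).

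**Figure D4:**
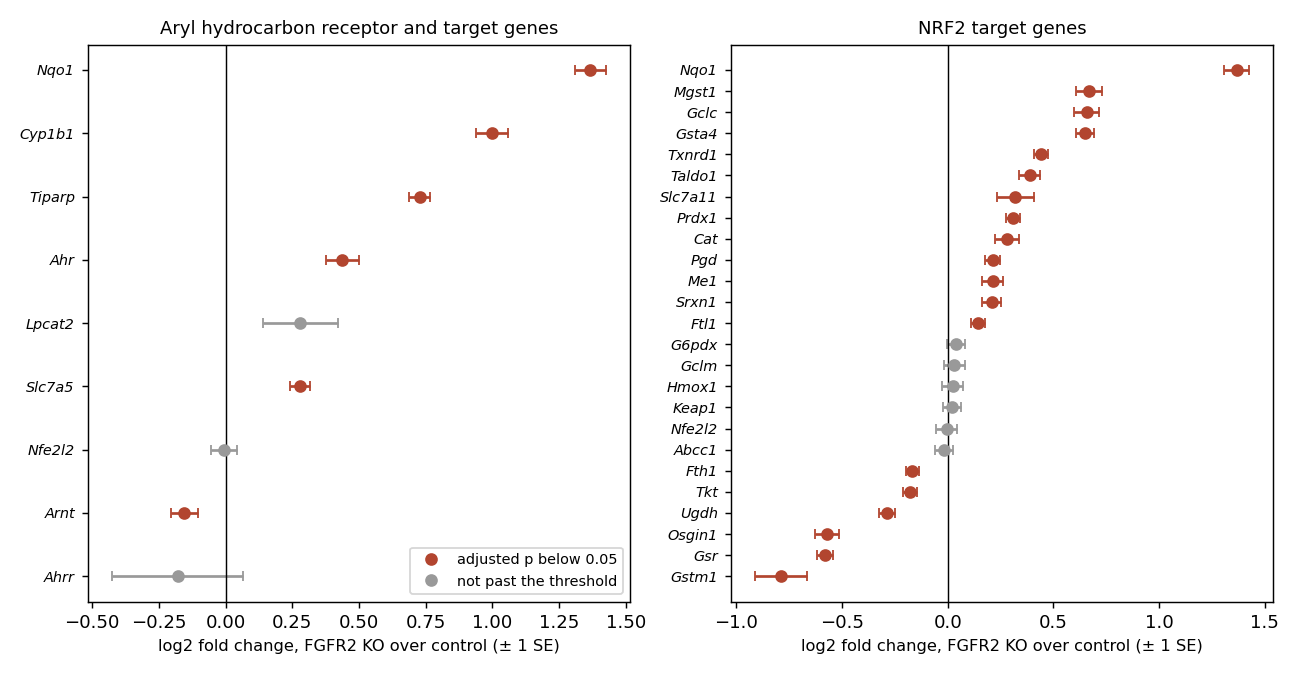
Log2 fold changes, FGFR2 KO over control, with bars of ± 1 SE, of the tested genes of the aryl hydrocarbon receptor list (left, 9 genes) and of the NRF2 list (right, 25 genes); grey points did not pass the threshold. Nqo1 at 1.37, which belongs to both lists, is the highest point in each.

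Genes around retinoic acid moved both ways by edgeR. Of 15 tested genes of retinoid uptake, synthesis and breakdown 4 rose and 5 fell (26.7% and 33.3%), close to the 27.1% higher and 27.5% lower among all tested genes. The 5 include Stra6, which passed the filter on low counts only through the control libraries and so had to be lower. Of 14 receptors and targets 5 rose and 6 fell (35.7% and 42.9%). The retinoic acid carrier Crabp2 rose to 3.38 ± 0.500 CPM in FGFR2 KO cells, against 0.714 ± 0.0713 CPM in control cells (SD, n = 3 each), and the retinoic acid hydroxylase Cyp26b1 rose to 5.27 CPM, against 1.96 CPM in control cells. The carbonyl reductase Dhrs4 rose by 0.60, whereas the retinal reductase Rdh11 fell by 0.63 on the log2 scale. The retinoid receptor gene Rxra rose by 0.35 and Rarg fell by 0.34. The corepressor Nrip1 fell by 0.81, and the transcriptional repressor Zfp703 rose by 0.39.

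Among 23 tested genes of alcohol and carbonyl metabolism, which supply or share the substrates of the family, 8 rose and 9 fell (34.8% and 39.1%), beside 27.1% and 27.5% of all tested genes. The alcohol dehydrogenase Adh7, which acts on retinol and ethanol, rose to 37.0 ± 3.38 CPM in FGFR2 KO cells, against 11.9 ± 1.37 CPM in control cells (SD, n = 3 each; 1.64 on the log2 scale, SE 0.090; edgeR adjusted p = 4.09e-18). Aldehyde oxidase Aox1 fell to 28.3 ± 2.36 CPM in FGFR2 KO cells, against 63.8 ± 3.89 CPM in control cells (-1.17 on the log2 scale, SE 0.065; edgeR adjusted p = 7.17e-18). The glyoxalase genes Hagh and Haghl fell by 0.57 and 0.55 on the log2 scale. Glo1, another glyoxalase gene of this list, rose by 0.23 (edgeR adjusted p = 9.18e-06). Of 16 tested genes of fatty aldehyde sources and ether lipids, near the substrates of Aldh3a2, 4 rose and 5 fell (25% and 31.2%), close to those shares. Gsta4, a transferase for the lipid aldehyde 4-hydroxynonenal, rose by 0.65. Tmem86a, Ephx1 and the lipid peroxide reductase Gpx4 fell by 1.14, 0.94 and 0.45.

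Pathway genes of the mitochondrial members were counted by the same edgeR test, which called 27.1% of all tested genes higher and 27.5% lower. One-carbon and serine genes, the pathway of Aldh1l2, had 14 of 23 tested members up and 2 down (60.9% and 8.70%), with a median of 0.25. Phgdh and Psat1 of serine synthesis rose by 0.50 and 0.32, thymidylate synthase Tyms by 0.57 and the folate carrier Slc19a1 by 0.76. Of 12 proline and ornithine genes around Aldh18a1, 5 rose and 5 fell (41.7% each). The prolyl hydroxylase subunits P4ha1 and P4ha2 fell by 1.20 and 1.76, P4ha3 rose by 2.04, and glutamine synthetase Glul fell by 0.68.

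ATF4 targets, a group that includes amino acid supply genes, had 18 of 30 up and 7 down (60.0% and 23.3%, against 27.1% and 27.5% of all tested genes), with Nupr1, Slc1a4 and Atf5 up by 1.39, 1.48 and 0.74 and Ddit4 down (-0.60). This list shares 5 genes with the one-carbon list. Atf4 itself, also on the list and named after its value was seen, differed by -0.01 (SE 0.037, edgeR adjusted p = 0.836). Of 7 tested genes of lysine, choline and carnitine breakdown, beside Aldh7a1 and Aldh9a1, 1 rose and none fell. The call was absent when genes under a mean of 5 CPM were left out, and without FGFR2 KO replicate 3 there were 2 calls. That gene was choline dehydrogenase Chdh, which makes the betaine aldehyde that Aldh7a1 can oxidise, at 6.67 ± 0.397 CPM in FGFR2 KO and 2.31 ± 0.273 CPM in control cells (SD, n = 3 each; log2 fold change 1.52, edgeR adjusted p = 6.76e-09).

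**Figure D5:**
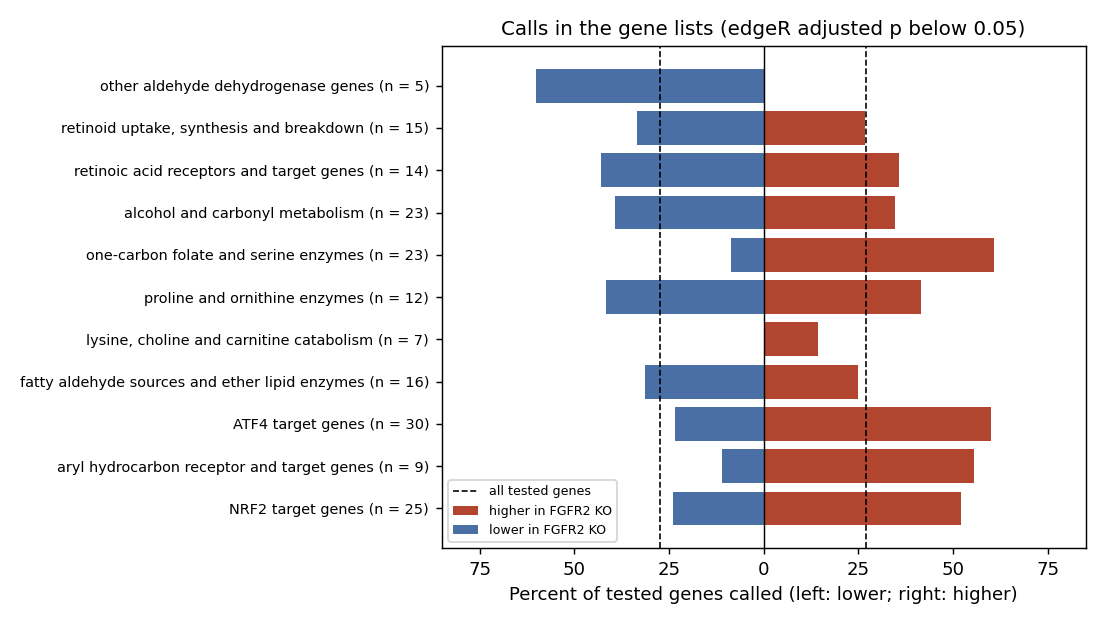
Percent of the tested genes of each list that were called higher (right) or lower (left) in FGFR2 KO than in control libraries, by edgeR at an adjusted p below 0.05; dashed lines mark the 27.1% higher and 27.5% lower among all tested genes. One-carbon genes reach 60.9% higher, and no family gene outside the members is called higher.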

How the data were processed

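The authors deposited whole-number read counts per gene symbol, 1 column per library, not normalized. The submitters' processing notes name FastQC 0.11.9, STAR 2.7.9a, featureCounts and R 4.1.1, and the builds hg38 and mm10 without a role. The sources used here do not give the annotation release, the strand setting or how reads with several alignments were treated. Of the symbols, 98.2% occur in GENCODE M21 (mm10), the source of positions and lengths.

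The counts were fitted over all genes with edgeR 4.0.16 in R 4.3.3 (filterByExpr, minimum count 10, minimum total 15, TMM scaling, group as the only term, quasi-likelihood F-test, Benjamini-Hochberg adjusted p below 0.05). Log2 fold changes carry a prior count of 0.125, and SE is their size over the root of F. The fit was tested on simulated data. Every pair of replicates differed by more than counting noise. The members and gene lists were chosen with earlier results of these data known. The genes named are all family genes, Fgfr2 and, per list, up to 4 genes with the smallest adjusted p that no earlier list had named. Outside this rule, Ahr, Arnt, Ahrr, Cyp1a1, Nfe2l2, Atf4, Stra6, Glo1 and the neighbours of Aldh3a1 were named after their values were seen. Markers were named as part of their lists, and Phax, AC162035.3, D10Wsu102e and Gm42879 as genes overlapping a member. Alternatives were DESeq2 1.42.0, upper quartile scaling, other filters, the replicate number as a block, coding length and leaving out each library. No protein sequences were used.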

Additional observations from a re-analysis of the deposited data

How the results depend on the processing

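Over 76 recomputed log2 fold changes of the 7 tested members, 75 moved by less than 1 SD between replicates and 0 changed sign. Many of these values came from leaving out 1 library. Leaving out 1 of 3 replicates can hardly shift a group mean by 1 SD, so for those values this limit is no test. Aldh3a1 ran from 2.26 to 2.33. Aldh3a2 moved to -0.18 with upper quartile scaling. The members past the threshold numbered 6, but 4 with DESeq2, with no filter or without FGFR2 KO replicate 1 or 3, and 7 with upper quartile scaling. Without control replicate 3, the control library with most of its counts, Aldh1l2 passed the filter through the FGFR2 KO libraries alone and so had to be higher. Of 132 recomputed counts of called genes, 130 stayed within 1.5 times. The exception was the list of lysine, choline and carnitine breakdown, with 0 calls under a mean of at least 5 CPM and 1 to 2 calls with 1 replicate left out. Of 58 other genes examined, Aldh5a1, D10Wsu102e and the Aldh3a1 neighbour Prpsap2 changed their call under an alternative. Coding length, an alternative chosen after seeing the data, kept the rank of 8 of the 10 members in FGFR2 KO and of 6 in control libraries. It gave Aldh3a1 34.5% of the summed level in FGFR2 KO and 7.86% in control cells, and Aldh2 47.8% in FGFR2 KO and 69.6% in control cells. Same-numbered libraries did not deviate together (correlations of -0.0294, -0.00317 and -0.0642). With the replicate number as a block 6443 genes were called, against 6639 without it, and Aldh3a1 stayed at 2.29. Depth limits the 4 members under 1 CPM, Aldh1a1 and Aldh1a3 above all.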

Other observations

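The neighbourhood of Aldh3a1 was examined after its value was known. Of the 10 nearest tested genes on chromosome 11 that are not members, 5 on each side, 2 rose and 4 fell, beside 27.1% and 27.5% of all tested genes. None reached the log2 fold change of 2.29 of Aldh3a1. The closest of them, Usp22, a deubiquitinase gene 32.5 kb away, stood at 187 CPM in FGFR2 KO and 185 CPM in control cells (log2 fold change 0.01, SE 0.038, edgeR adjusted p = 0.806). Map2k3, a kinase of the p38 pathway 255 kb away, rose by 0.42 (edgeR adjusted p = 2.31e-11). The largest difference was that of Epn2, an endocytic adaptor 299 kb away on the other side, which fell to 129 CPM in FGFR2 KO cells, against 304 CPM in control cells (-1.24 on the log2 scale, SE 0.039; edgeR adjusted p = 1.17e-25).

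Stra6, the membrane receptor for vitamin A uptake, was noticed after its values were seen. It had 1, 1 and 2 counts in the FGFR2 KO libraries and 15, 40 and 15 counts in the control libraries. It passed the filter on low counts only through the control libraries and so had to differ, and no fold change or p-value is given.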
